A study of Mus musculus with 13 samples.

Results

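Regulatory T (Treg) cells and CD4 conventional T (Tconv) cells sorted from tumors were compared gene by gene, in mice whose Treg cells had been left in place. The comparison used 5 of the 13 libraries of the series, all those labelled Treg cell (n = 3) and all those of CD4 Tconv cells after saline (n = 2), and covered the 12667 of 12963 listed genes that had at least 10 normalized reads in at least 2 libraries. Every animal carried the Foxp3-EGFP-DTR genotype, in which green fluorescent protein (EGFP) and a diphtheria toxin receptor are expressed from the endogenous Foxp3 locus. The gene that defines the Treg lineage therefore also set the sorting gate. The mice were adults of both sexes bearing B16-F10 melanoma, an established mouse tumor cell line grown under the skin, and received phosphate-buffered saline (PBS), the control for the toxin given to other groups. CD4 T cells positive for EGFP were sorted as Treg cells (Treg PBS, replicates 1, 2 and 3) and those negative for EGFP as Tconv cells (CD4 PBS, replicates 2 and 3). The Tconv gate does not separate naive from activated cells, and in such bulk samples fewer cells of a type and less RNA per cell cannot be told apart.

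Treg cells are CD4 T cells that depend on the transcription factor Foxp3 and restrain other immune cells, among other means by taking up IL-2, by the inhibitory receptor CTLA-4, by IL-10 and by activating TGF-beta. Those that enter tissues and tumors are known to be activated cells that have left the recirculating state of a naive T cell, which relies on CCR7 to enter lymph nodes and on S1PR1 to leave them. How far the genes that set tumor Treg cells apart extend past these markers, into cell division, metabolism, trafficking and signalling, was the question of this comparison.

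Levels are given as normalized reads, the reads of a gene divided by 1 factor per library and not by gene length, so that levels of different genes cannot be compared. Foxp3 was at 1178, 1856 and 1896 normalized reads in Treg PBS 1, 2 and 3 and at 0 and 0 in CD4 PBS 2 and 3, in which order all values below are given. The gap, at least 401-fold against the detection floor of 3 reads per library, is what the gate selected for and served as the check of the labels. Cd4 stood at 15678, 10595 and 16064 in Treg cells and 19673 and 17779.6 in Tconv cells, and Cd8a at 41.5, 105 and 180.1 and 31.4 and 26.4, against 23475 and 27907 in the CD8 T cells of the same series.

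The 5 libraries held between 15947556 and 34140486 reads. Y-linked transcripts were read in the replicates numbered 3 of both groups and Xist in the others, with Ddx3y at 0, 0 and 3406 in Treg cells and 0 and 4026 in Tconv cells, and 0 of 5 sex-linked genes were called between the groups. Immediate early and heat shock genes summed to 143737, 132986 and 360703 normalized reads in the Treg libraries and 135974 and 450973 in the Tconv libraries, highest in replicate 3 of each group, and 1 of 33 was called. Since replicate 3 stood apart in these genes, list counts of at least 3 that move by over 1.5 times without the replicate 3 libraries of every group are given under that fit too, a fit that leaves a single Tconv library. Of the markers of other cells, 0 of 18 macrophage, 0 of 8 NK cell, 0 of 7 erythroid, 0 of 2 CD8 T cell, 0 of 3 fibroblast and endothelium and 0 of 2 keratinocyte genes were called, beside 1 of 7 melanocyte genes (Trpm1), 1 of 5 neutrophil genes (Ltf), 2 of 10 B cell genes (Igkc and Cd79b) and 2 of 9 dendritic cell genes (Cd74 and Xcr1), all higher in Treg cells. Melanocyte markers summed to 1365, 1396 and 1894 in the Treg libraries and 1024 and 713 in the Tconv libraries.

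A gene was called when the difference passed a Benjamini-Hochberg adjusted p of 0.05 in limma, fitted over all 13 libraries, with a log2 fold change beyond 2, a 4-fold difference on the log2(normalized reads + 1) scale. Fold changes are given with the standard error of that model. By this rule 1292 genes (10.2%) were called, of which 994 (7.85%) were higher in Treg cells and 298 (2.35%) lower. The higher genes had a median level of 344 normalized reads in Treg cells against 19.1 in Tconv cells, and the lower genes 69.2 against 688. Treg and Tconv libraries did not overlap in 992 of the higher and 297 of the lower genes, beside 56.7% of all genes tested. In 303 of the higher genes both Tconv libraries were at or under the detection floor, as were all Treg libraries in 55 of the lower genes. Under TMM scaling 985 genes were called higher and 306 lower, and after quantile normalization 906 and 512. Leaving out CD4 PBS replicate 3 left 708 higher and 132 lower calls, CD4 PBS replicate 2 728 and 154, and Treg PBS replicate 1 850 and 192. Without replicate 3 of every group, 553 genes were called higher and 243 lower, of which 493 and 89 were among those above.

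**Figure D1:**
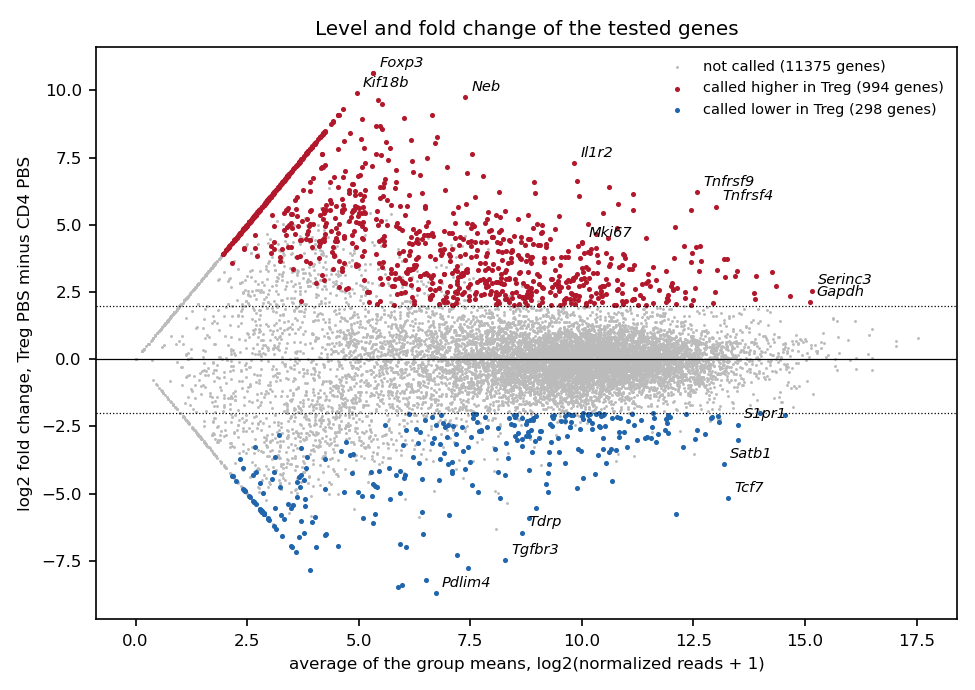
Level (x axis, mean of the 2 group means of log2(normalized reads + 1)) against the log2 fold change of Treg PBS over CD4 PBS (y axis) for 12667 genes, 1 point each, with dotted lines at the 4-fold threshold. The 994 genes called higher lie above the upper line, Foxp3, Tnfrsf4 and Serinc3 among them, and the 298 lower ones include Tcf7, Satb1 and Tgfbr3.

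Of 19 genes known to mark Treg identity, Foxp3 among them, 18 were called higher and 0 lower, and 12 without replicate 3 of every group. The exception was the orphan receptor Gpr83, at 173, 1352 and 1117 normalized reads in Treg cells and 394 and 584 in Tconv cells (log2 fold change 0.42 ± 1.76, limma adjusted p = 0.892). The largest fold changes among genes with at least 200 normalized reads in each library of the higher group went beyond the classic Treg markers. After Foxp3 came Ttn, which encodes the giant muscle protein titin, at 1623, 1513 and 1654 normalized reads in Treg cells and 0 and 0 in Tconv cells, at least 389.5-fold higher (limma adjusted p = 1.7e-05). Nebulin (Neb), the other giant protein of the muscle sarcomere, was at 4876, 4602 and 5227 and 0 and 31 (log2 fold change 9.76 ± 1.91, limma adjusted p = 0.00373), with its call lost without CD4 PBS replicate 2 (limma adjusted p = 0.0614, log2 fold change 7.26). Both genes were 0 or close to it in CD8 T cells, Ttn at 0 and 0 and Neb at 18.2 and 0. The other genes of this set encode the mitotic kinesin Kif18b, the lysosomal peptide and histidine transporter Slc15a3, the cytokine IL-10, the piRNA-binding protein Piwil2, the tyrosine phosphatase Ptpn5, the vesicle GTPase Rab26, the eosinophil-type chemokine receptor Ccr3, the vesicle protein Ica1 and the orphan receptor Gpr160. Slc15a3 stood at 1452, 789 and 1608 against 0 and 1.32, at least 313-fold higher (limma adjusted p = 7.9e-06). Ptpn5 stood at 2283, 1977 and 2865 against 0 and 17.2 (log2 fold change 9.11 ± 1.61, limma adjusted p = 0.00196). Across these 12 genes the highest Tconv value was 31.0, for Neb, and the lowest Treg value 324, for Ica1.

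By difference in normalized reads rather than fold, which also depends on the length of a gene, other genes led. Serinc3, a membrane protein of the serine incorporator family, was at 104734, 82149 and 79062 in Treg cells and 16050.4 and 13918 in Tconv cells (log2 fold change 2.56 ± 0.28, limma adjusted p = 9.6e-05). The noncoding transcript AW112010 stood at 108727, 49735 and 40589 and 8642 and 4642 (log2 fold change 3.25 ± 0.42, limma adjusted p = 0.000245). Odc1, the rate-limiting enzyme of polyamine synthesis, was at 41019, 38939 and 56866 and 5229.9 and 5169.8 (log2 fold change 3.11 ± 0.31, limma adjusted p = 5.0e-05). The rest were Tnfrsf4, Tnfrsf9, Gapdh, Ly6a and Ifngr1, described with their groups below. The groups did not overlap in these 8 genes. That held for 992 of the 994 genes called higher and for 56.7% of all genes tested, so it is no separate support.

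**Figure D2:**
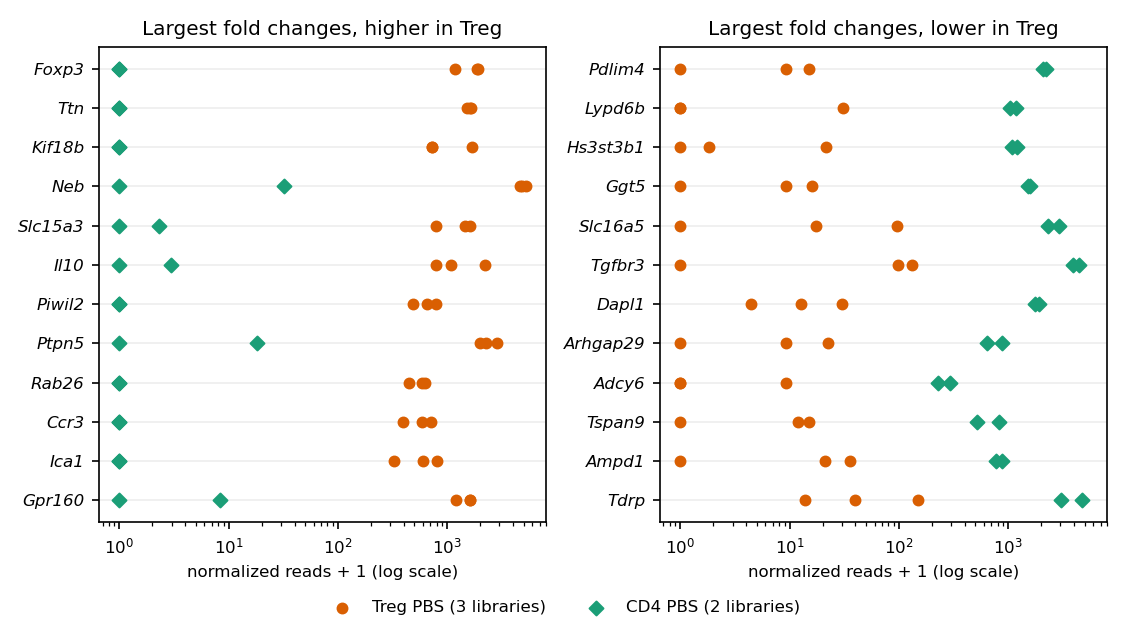
Normalized reads plus 1 (x axis, log scale) of the 12 genes with the largest fold changes in each direction, with 1 point per library for Treg PBS (circles, n = 3) and CD4 PBS (diamonds, n = 2). The groups are apart in every row because only genes without overlap were taken, and Foxp3, Ttn, Kif18b, Piwil2, Rab26, Ccr3 and Ica1 were read at 0 in both Tconv libraries.

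Genes of cell division were called in large numbers. Of 90 genes of mitosis and chromosome segregation 73 were called higher in Treg cells and 0 lower, with a median log2 fold change of 3.95 against 0.01 over all genes, and their mean level on the log2 scale was 9.74, 10.58 and 9.31 in the Treg libraries and 6.10 and 5.74 in the Tconv libraries. CD8 T cells lay between, at 7.98 and 6.33. The proliferation marker Mki67 was at 3253, 8115 and 3685 in Treg cells and 289.7 and 183 in Tconv cells (log2 fold change 4.31 ± 0.57, limma adjusted p = 0.000305). Top2a, the topoisomerase that untangles replicated chromosomes, stood at 4268, 7957 and 3708 and 504 and 224 (log2 fold change 3.89 ± 0.61, limma adjusted p = 0.000883). Kif18b, which shortens microtubules of the spindle, was at 721, 1692 and 719 and 0 and 0. Racgap1, needed for cytokinesis, was at 3400.5, 6029 and 3273 and 693 and 498 (log2 fold change 2.79 ± 0.33, limma adjusted p = 0.000154) and reached 4362 and 4364 in CD8 T cells. In each of these genes Treg PBS replicate 2 was the highest library, and only genes without overlap of the groups were picked out. Without replicate 3 of every group, 43 of the 90 were called.

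Fewer genes of DNA synthesis were called. Of 54 genes of replication and nucleotide supply 15 were called higher and 0 lower, with a median log2 fold change of 1.14. Rrm2, a subunit of the ribonucleotide reductase that makes deoxynucleotides, was at 4373, 7202 and 3035 in Treg cells and 547 and 256 in Tconv cells (log2 fold change 3.61 ± 0.50, limma adjusted p = 0.000381). Its partner Rrm1 was at 7884, 11885 and 5309 and 1781 and 1857 (log2 fold change 2.12 ± 0.39, limma adjusted p = 0.00229), and was not called without Treg PBS replicate 2 (limma adjusted p = 0.01, log2 fold change 1.83). Asf1b, a histone chaperone, stood at 3468, 5082 and 1922 and 405 and 392 (log2 fold change 3.02 ± 0.42, limma adjusted p = 0.000422). The 6 subunits of the MCM2-7 helicase, which opens the DNA ahead of the fork, were looked at after their values were seen, and 0 of 6 were called: Mcm5 had the largest log2 fold change, 1.63, and Mcm2 the smallest, 0.43. Mcm2 was at 3627, 5257 and 4018 in Treg cells and at 2832 and 3532 in Tconv cells. Of the regulators between G1 and S phase 13 of 38 were called higher, among them both the kinase Cdk6, at 565, 1412 and 1184 against 204 and 93.1 (log2 fold change 2.82 ± 0.49, limma adjusted p = 0.00169), and inhibitors of such kinases. Cdkn2c, an inhibitor of Cdk4 and Cdk6, was at 631, 937 and 612 and 159 and 116 (log2 fold change 2.38 ± 0.36, limma adjusted p = 0.00068), and Cdkn1a, the p21 inhibitor, at 721, 846 and 1117 and 98.4 and 239 (log2 fold change 2.51 ± 0.43, limma adjusted p = 0.00159), the latter not called without CD4 PBS replicate 2 (limma adjusted p = 0.0291, log2 fold change 1.88). Of the DNA repair list 11 of 44 were called higher, among them Clspn, which helps activate the checkpoint kinase Chk1, at 279, 1048 and 549 against 2.73 and 67.4 (log2 fold change 5.09 ± 1.03, limma adjusted p = 0.00456), a call lost without CD4 PBS replicate 2 (limma adjusted p = 0.0529, log2 fold change 2.99). The counts for the G1 to S and repair lists fell to 7 without CD4 PBS replicate 2 and 7 without CD4 PBS replicate 2, and those of the replication, G1 to S and repair lists to 8, 7 and 6 without replicate 3 of every group.

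Promoters of the mitotic genes are shown because these genes moved together. The table of RefSeq promoters (GRCm38.p6, 250 bases before to 50 after a start, first start listed per gene) held 62 of the 73 called members. Their letters were searched on both strands for the CHR element of late cell cycle promoters (TTTGAA or TTCGAA, the latter its own reverse complement), for the CCAAT box (CCAAT) and for E2F-type sites (TTTGGCGC, TTTCGCGC or TTTCCCGC). A CHR match was in 44 of 62 promoters (71.0%) against 19.4% of all 27025 promoters in the table, a CCAAT match in 44 (71.0%) against 37.9%, and both in 35 (56.5%) against 7.70%. E2F-type matches were in 5 (8.06%) against 1.91%. Among the 44 promoters found for the replication list the order was different, with CHR in 22.7%, CCAAT in 56.8% and E2F-type letters in 29.5%. The 14 promoters of the mitotic genes that were not called held CHR in 57.1%, CCAAT in 64.3%, both in 57.1% and E2F-type letters in 21.4%, so that the share with both was close to that of the called genes. The 3 Treg-high genes with both matches and the highest Treg levels of these are printed 5′ to 3′ on the strand of the gene, with CHR and CCAAT matches, in either orientation, in capitals. Top2a lies on the minus strand at chr11:99024140-99024439 with 4 CHR and 6 CCAAT matches, Mki67 on the minus strand at chr7:135716330-135716629 with 2 and 3, and Racgap1 on the minus strand at chr15:99651607-99651906 with 1 and 1.
Top2a: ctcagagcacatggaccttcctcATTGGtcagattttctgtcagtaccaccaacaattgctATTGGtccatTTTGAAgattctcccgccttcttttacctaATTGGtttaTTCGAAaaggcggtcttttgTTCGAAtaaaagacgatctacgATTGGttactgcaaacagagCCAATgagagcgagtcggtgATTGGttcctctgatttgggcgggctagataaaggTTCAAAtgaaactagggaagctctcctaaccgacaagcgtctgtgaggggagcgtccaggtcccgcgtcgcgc
Mki67: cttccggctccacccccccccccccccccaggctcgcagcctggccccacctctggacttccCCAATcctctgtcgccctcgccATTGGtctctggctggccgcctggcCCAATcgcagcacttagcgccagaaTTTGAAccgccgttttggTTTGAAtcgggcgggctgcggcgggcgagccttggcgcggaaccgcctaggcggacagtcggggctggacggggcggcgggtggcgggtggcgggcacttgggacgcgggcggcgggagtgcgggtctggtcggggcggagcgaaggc
Racgap1: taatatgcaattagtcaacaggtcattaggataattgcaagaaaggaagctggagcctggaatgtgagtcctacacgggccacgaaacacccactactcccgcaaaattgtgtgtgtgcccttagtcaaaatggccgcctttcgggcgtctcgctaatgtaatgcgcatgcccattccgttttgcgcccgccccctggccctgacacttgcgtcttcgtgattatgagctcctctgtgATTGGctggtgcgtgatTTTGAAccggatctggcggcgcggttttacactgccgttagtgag
A match of letters is a description of these windows and no evidence that a factor binds there.

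**Figure D3:**
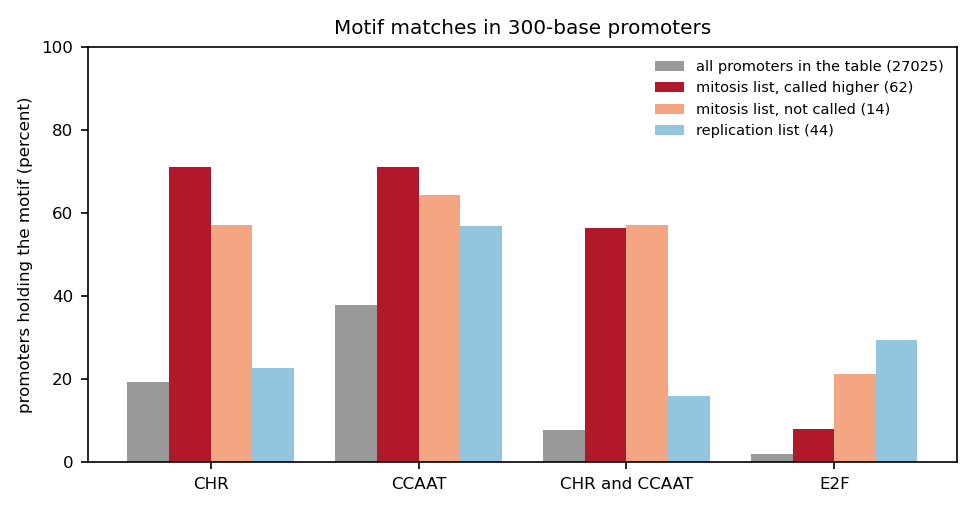
Percent of 300-base promoters (y axis) that hold CHR, CCAAT, both, or E2F-type letters, for all promoters of the table (27025) and for those of the mitotic genes called higher (62), the mitotic genes not called (14) and the replication list (44). CHR is in 71.0% of the called mitotic promoters and 22.7% of the replication promoters, and E2F-type letters in 8.06% and 29.5%.

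Receptors of the TNF family, which carry costimulatory signals, were called mostly in the higher direction. Of 19 measured members 6 were called higher (Tnfrsf4, Tnfrsf9, Tnfrsf18, Tnfrsf1b, Tnfrsf8 and Tnfrsf23) and 1 lower. Tnfrsf9, encoding 4-1BB, was at 51911, 46807 and 60509 in Treg cells and 764 and 655 in Tconv cells (log2 fold change 6.22 ± 0.42, limma adjusted p = 6.7e-06). Tnfrsf4, encoding OX40, was at 73550.2, 61302 and 45931 and 2106 and 631 (log2 fold change 5.68 ± 0.57, limma adjusted p = 5.2e-05). Tnfrsf1b, the second TNF receptor, was at 27891, 21354 and 33485 and 3702 and 2884 (log2 fold change 3.05 ± 0.32, limma adjusted p = 6.8e-05). The lower member was Tnfrsf26, a mouse decoy-type receptor, at 188, 239 and 423 and 1317 and 1565 (log2 fold change -2.42 ± 0.31, limma adjusted p = 0.000221). Of 14 ligands 2 were higher and 2 lower. Tnfsf9, the ligand of 4-1BB, was called higher at 506, 466 and 417 against 45.1 and 48.2 (log2 fold change 3.28 ± 0.40, limma adjusted p = 0.000174), and Cd70, the ligand of CD27, at 223, 155 and 105 against 0 and 0, at least 39.2-fold, with its call lost without CD4 PBS replicate 2 and CD4 PBS replicate 3, each left out alone (limma adjusted p between 0.0573 and 0.0597, log2 fold change 7.27 in both). Cd40lg, through which helper T cells activate B cells and dendritic cells, was lower in Treg cells at 285, 378 and 524 against 3529.9 and 5922 (log2 fold change -3.57 ± 0.41, limma adjusted p = 0.000115), as was Tnfsf8, the CD30 ligand, at 96.5, 425 and 649 against 2152 and 2192 (log2 fold change -2.86 ± 0.57, limma adjusted p = 0.00403). Of 34 genes of the NF-kB pathway downstream of these receptors 0 were called higher and 1 lower. By adjusted p alone, without the fold threshold, 10 of the 34 were higher and 5 lower, against 1706 and 875 of all 12667 genes. The gene called lower was Map3k14, the kinase NIK of the noncanonical branch, at 339, 335 and 500.3 against 1819 and 2056 (log2 fold change -2.33 ± 0.55, limma adjusted p = 0.0108). Its call was lost without CD4 PBS replicate 2 and CD4 PBS replicate 3, each left out alone (log2 fold change between -2.42 and -2.24).

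Other inhibitory and costimulatory surface proteins gave 10 higher and 2 lower of 34. Icos, a CD28-family costimulator, was at 31768, 36408 and 37525 in Treg cells and 4474 and 2977 in Tconv cells (log2 fold change 3.27 ± 0.40, limma adjusted p = 0.000175). Pdcd1, encoding PD-1, was at 30243, 16352 and 21598 and 2448 and 845 (log2 fold change 3.94 ± 0.49, limma adjusted p = 0.000194). Klrg1, a lectin-like inhibitory receptor of terminally differentiated cells, was at 12492, 7400 and 9048 and 118 and 74 (log2 fold change 6.64 ± 0.61, limma adjusted p = 3.1e-05). Treg libraries were the higher ones throughout, since these genes were picked from called members without overlap. Cd28 itself, named after its values were seen, was not called, at 10202, 13382 and 13426 and 10822 and 11308 (log2 fold change 0.15 ± 0.26, limma adjusted p = 0.727). Lower were Lair1, a collagen receptor, at 102, 199 and 34.1 against 514 and 395 (log2 fold change -2.33 ± 0.56, limma adjusted p = 0.0123), a call lost without Treg PBS replicate 3, CD4 PBS replicate 2 and CD4 PBS replicate 3, each left out alone (limma adjusted p between 0.0147 and 0.0985, log2 fold change between -2.52 and -1.65), and Crtam, a marker of cytotoxic CD4 cells, at 0, 24.9 and 18.8 against 195 and 228 (log2 fold change -4.73 ± 1.03, limma adjusted p = 0.00692). The count of lower genes in this list was 1 without Treg PBS replicate 3, 1 without CD4 PBS replicate 2 and 0 without CD4 PBS replicate 3.

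Chemokine receptors and related trafficking receptors divided in both directions, with 10 of 27 higher and 5 lower. Ccr8, a receptor associated with tumor Treg cells, was at 13693, 13045 and 12961 in Treg cells and 738 and 445 in Tconv cells (log2 fold change 4.53 ± 0.46, limma adjusted p = 5.7e-05). Ccr2, a receptor for monocyte chemoattractants, was at 12555, 14264 and 21903 and 1697 and 773 (log2 fold change 3.78 ± 0.49, limma adjusted p = 0.000246). Cxcr3, the receptor for interferon-induced chemokines, was at 29299, 17724 and 14217 and 3154 and 1298 (log2 fold change 3.27 ± 0.48, limma adjusted p = 0.000557). These 3 receptors were between 445 and 3154 normalized reads in Tconv libraries and at or above 12555 in Treg libraries. The lower ones were Ccr7, S1pr1, Ccr9, Cxcr1 and S1pr5. Ccr7, which brings T cells into lymph nodes, was at 1655, 7979.6 and 5051 in Treg cells and 30630.4 and 34691 in Tconv cells (log2 fold change -3.01 ± 0.67, limma adjusted p = 0.00822), with the call lost without CD4 PBS replicate 2 and CD4 PBS replicate 3, each left out alone (limma adjusted p between 0.0504 and 0.0662, log2 fold change between -3.10 and -2.92). S1pr1, which lets them leave, was at 3397, 5608 and 6404 and 22276 and 31994 (log2 fold change -2.43 ± 0.32, limma adjusted p = 0.00028). Cxcr1 and S1pr5 were under 50 normalized reads in every library of both groups. The count of lower receptors was 2 without CD4 PBS replicate 2 and 1 without CD4 PBS replicate 3, and without replicate 3 of every group 6 were higher and 3 lower. Of 21 chemokines 4 were higher and 0 lower. Ccl5 was at 19914, 5966 and 5176 and 1286 and 703 (log2 fold change 3.16 ± 0.56, limma adjusted p = 0.0019), Ccl4 at 5203, 1704 and 1470.3 and 10.9 and 35.7 (log2 fold change 6.81 ± 0.63, limma adjusted p = 3.3e-05), and Ccl3 at 1666, 604 and 963 and 41 and 25.8 (log2 fold change 4.89 ± 0.62, limma adjusted p = 0.000218), each highest in Treg PBS replicate 1. Ccl1, the ligand of CCR8, was at 248, 191 and 83.6 and 0 and 0, at least 42.5-fold higher (limma adjusted p = 2.6e-05).

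Integrins, which hold cells to tissue, were higher in 6 of 21 (Itgae, Itgav, Itgb8, Itga3, Itgb5 and Itga1) and lower in 0, the count being 3 without CD4 PBS replicate 2 and 2 without replicate 3 of every group. Itgae, the CD103 chain that binds E-cadherin on epithelium, was at 8505, 8186 and 12594 in Treg cells and 791 and 130.1 in Tconv cells (log2 fold change 4.89 ± 0.76, limma adjusted p = 0.000844), and at 8515 and 6974 in CD8 T cells. Adhesion and matrix genes were higher in 11 of 50 and lower in 2, and in 5 and 0 without replicate 3 of every group. The metalloprotease Adam8 was at 5590.2, 3874 and 7139 and 440.0 and 204 (log2 fold change 4.16 ± 0.48, limma adjusted p = 0.000121). Cd81, a tetraspanin, was at 10477, 8695 and 11533 and 715 and 1229.9 (log2 fold change 3.44 ± 0.54, limma adjusted p = 0.000843). Among the lower ones was the metalloprotease Mmp15, which was 0 in all Treg libraries and 5.47 and 62.1 in Tconv libraries, and the count of lower genes in this list was 0 without Treg PBS replicate 1, 1 without Treg PBS replicate 2 and 0 without CD4 PBS replicate 3. Cytoskeletal genes were higher in 12 of 60 and lower in 3, with 9 and 0 without replicate 3 of every group. The actin-capping protein Capg was at 45018, 35478 and 29012 and 3862 and 1867 (log2 fold change 3.74 ± 0.40, limma adjusted p = 8.2e-05), and the membrane-bound myosin Myo1e at 4609, 4894 and 5062 and 61.5 and 38.3 (log2 fold change 6.61 ± 0.46, limma adjusted p = 6.7e-06). In the other direction went 3 actin-associated proteins, Actn1 at 145, 227 and 258 against 2599 and 3478 (log2 fold change -3.87 ± 0.44, limma adjusted p = 0.000118), Pdlim1 at 323, 842 and 1091 against 4213 and 5861 (log2 fold change -2.89 ± 0.54, limma adjusted p = 0.00277) and Pdlim4 at 0, 14.1 and 8.24 against 2207 and 2102 (log2 fold change -8.70 ± 1.61, limma adjusted p = 0.00255). The calcium-binding and lectin genes of the S100, annexin and galectin families, which often mark effector and memory T cells, were higher in 9 of 24 and lower in 0, with Anxa2 at 34535, 26024 and 23907 against 1964 and 1129 (log2 fold change 4.22 ± 0.47, limma adjusted p = 0.000104) and Lgals1 at 37534, 24187 and 13559 against 2635 and 1252 (log2 fold change 3.67 ± 0.53, limma adjusted p = 0.000539).

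Secreted factors were called higher in 10 of 35 (Fgl2, Penk, Grn, Ebi3, Csf1, Il10, Metrnl, Bmp7, Pdgfb and Areg) and lower in 1, Il21. Fgl2, a fibrinogen-like protein with an immunosuppressive soluble form, was at 23454, 9495 and 16588 in Treg cells and 455 and 236 in Tconv cells (log2 fold change 5.55 ± 0.66, limma adjusted p = 0.000158). Penk, the precursor of the enkephalin opioid peptides, was at 8000.0, 6999 and 9324 and 171 and 83.2 (log2 fold change 6.06 ± 0.70, limma adjusted p = 0.000121). Ebi3, a subunit of IL-35 and IL-27, was at 2449, 2283 and 2613 and 45.1 and 21.8 (log2 fold change 6.24 ± 0.67, limma adjusted p = 8.2e-05). Il10 was at 1081, 783 and 2214 and 0 and 1.98, at least 332-fold higher (limma adjusted p = 0.00282). Treg libraries were the higher ones in each, since only called members without overlap were picked out. Il21, a helper cytokine for B cells, was at 0, 20.6 and 0 in Treg cells and 77.9 and 41.6 in Tconv cells (log2 fold change -4.38 ± 1.30, limma adjusted p = 0.032), and not called without Treg PBS replicate 1, Treg PBS replicate 3, CD4 PBS replicate 2 and CD4 PBS replicate 3, each left out alone (limma adjusted p between 0.0791 and 0.183, log2 fold change between -4.82 and -3.64). Without replicate 3 of every group, 5 of the 35 were higher.

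Cytokine receptors changed chain by chain, with 11 of 55 higher and 6 lower. For IL-2, the receptor chains Il2ra, at 11400.5, 19950 and 13052 against 223 and 126 (log2 fold change 6.41 ± 0.52, limma adjusted p = 1.7e-05), and Il2rb, at 34484, 28185 and 35634 against 5515 and 2563 (log2 fold change 3.12 ± 0.36, limma adjusted p = 0.000118), were both higher. Il1r2, the decoy receptor that binds IL-1 without signalling, was at 11407, 11852 and 10979.8 and 99.8 and 51.5 (log2 fold change 7.29 ± 0.39, limma adjusted p = 3.0e-06). Of the interferon gamma receptor, the ligand-binding chain Ifngr1 was higher at 78556, 47616 and 55024 against 13853 and 9673 (log2 fold change 2.35 ± 0.33, limma adjusted p = 0.000463). Its signalling partner Ifngr2, named for this contrast after its values were seen, was lower at 271, 318 and 526 against 1692 and 2499 (log2 fold change -2.52 ± 0.80, limma adjusted p = 0.0434), and was called under 8 of 16 alternative settings. Il17ra was lower at 1174, 1540.5 and 2639 against 9790.1 and 7724 (log2 fold change -2.37 ± 0.45, limma adjusted p = 0.00308), and so was Il6ra at 57.6, 456 and 386 against 2779.6 and 2068 (log2 fold change -3.46 ± 0.75, limma adjusted p = 0.00662), the latter not called without CD4 PBS replicate 2 (limma adjusted p = 0.064, log2 fold change -3.25). The counts became 7 without Treg PBS replicate 2 and 7 without CD4 PBS replicate 3 for higher receptors, 2 without CD4 PBS replicate 2 for lower ones, and 4 and 2 without replicate 3 of every group. Of 25 genes of the JAK, STAT and SOCS list 2 were called higher (8%, against 7.85% of all genes), the feedback inhibitors Cish at 8686, 7662 and 10933 against 1376 and 1004 (log2 fold change 2.93 ± 0.26, limma adjusted p = 2.4e-05) and Socs2 at 1663, 1531 and 1178 against 174 and 62.1 (log2 fold change 3.78 ± 0.56, limma adjusted p = 0.000611). The list had 1 lower gene, the survival kinase Pim2, at 657, 783 and 1249 against 3313 and 4765 (log2 fold change -2.20 ± 0.31, limma adjusted p = 0.000458), a call lost without CD4 PBS replicate 3 (limma adjusted p = 0.0104, log2 fold change -1.94).

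Of 37 genes of the TGF-beta and BMP pathway 6 were higher (Lrrc32, Itgav, Itgb8, Bmpr1a, Bmpr2 and Bmp7) and 4 lower (Tgfbr2, Tgfbr3, Smad7 and Smurf2). Among the higher ones were 3 genes known to present or activate latent TGF-beta, Lrrc32, which encodes the docking protein GARP, at 1822, 3254 and 3134 against 8.2 and 17.8 (log2 fold change 7.65 ± 1.44, limma adjusted p = 0.00281), and the integrin chains Itgav, at 2299, 2863 and 4111 against 577 and 509 (log2 fold change 2.47 ± 0.59, limma adjusted p = 0.0119), and Itgb8, at 1261, 997 and 1464 against 0 and 46.2 (log2 fold change 7.48 ± 1.77, limma adjusted p = 0.0108). The calls of these integrin chains were lost for Itgav without CD4 PBS replicate 2 and CD4 PBS replicate 3, each left out alone (limma adjusted p between 0.064 and 0.085, log2 fold change between 2.38 and 2.56) and for Itgb8 without CD4 PBS replicate 2 (limma adjusted p = 0.148, log2 fold change 4.70). Of the receptors for TGF-beta, those called were lower, Tgfbr2 at 2692, 3901 and 6532 against 17211 and 17941 (log2 fold change -2.10 ± 0.43, limma adjusted p = 0.00469) and the co-receptor Tgfbr3 at 0, 97.5 and 129 against 4441 and 3898 (log2 fold change -7.47 ± 1.61, limma adjusted p = 0.00651). Tgfbr2 was not called without Treg PBS replicate 1 (limma adjusted p = 0.0203, log2 fold change -1.80), and Tgfbr3 was not called without CD4 PBS replicate 2 (limma adjusted p = 0.051, log2 fold change -7.38). Smad7 and Smurf2 encode inhibitors of the pathway, and Bmp7 a BMP ligand. Smad7 was not called with Treg PBS replicate 1, Treg PBS replicate 2 or either Tconv library left out (log2 fold change between -2.47 and -1.85). Smurf2 was not called without Treg PBS replicate 1 (log2 fold change -1.79). With the replicate number as a block both were at -1.91 and not called. Bmp7 lost its call without any single Treg library and without CD4 PBS replicate 3 (log2 fold change between 1.79 and 2.45). Higher members numbered 3 without Treg PBS replicate 2, 3 without CD4 PBS replicate 2 and 2 without CD4 PBS replicate 3, and 0 without replicate 3 of every group. Lower members numbered 1 without Treg PBS replicate 1, 7 without Treg PBS replicate 3 and 2 without CD4 PBS replicate 2, and 1 with the replicate number as a block.

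Of 37 genes that handle purines, prostaglandins and lipid mediators 5 were higher (Entpd1, Nt5e, Adora2b, Ptgs1 and Ptger2) and 4 lower (Pde3b, Pde7a, S1pr1 and S1pr5). The ectoenzymes that turn ATP into adenosine were both higher, Entpd1 (CD39) at 6865, 3642 and 3629 against 137 and 91.8 (log2 fold change 5.31 ± 0.44, limma adjusted p = 1.9e-05) and Nt5e (CD73) at 9489, 4881 and 7132 against 1177 and 832 (log2 fold change 2.80 ± 0.31, limma adjusted p = 9.1e-05). Ptger2, a prostaglandin E2 receptor that raises cyclic AMP, was at 2004, 1074 and 1249 and 68.3 and 104 (log2 fold change 4.03 ± 0.55, limma adjusted p = 0.000351). The lower phosphodiesterases, which degrade cyclic AMP, were Pde3b at 163, 147 and 465 against 4946 and 4678 (log2 fold change -4.42 ± 0.54, limma adjusted p = 0.000182) and Pde7a at 414, 398 and 487 against 2010.2 and 1656 (log2 fold change -2.08 ± 0.39, limma adjusted p = 0.0026). Pde7a was not called without CD4 PBS replicate 2 (limma adjusted p = 0.0349, log2 fold change -1.94). Adcy6, an enzyme that makes cyclic AMP and no member of the list, was lower as well, at 0, 0 and 8.24 against 295 and 226, with its call lost without CD4 PBS replicate 2 and CD4 PBS replicate 3, each left out alone (limma adjusted p between 0.0526 and 0.0624, log2 fold change between -7.14 and -6.76).

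Genes that mark naive and recirculating T cells formed the main group on the lower side. Of 51 such genes 27 were called lower and 0 higher, with a median log2 fold change of -2.49, and 3 of 51 had a positive one. Tcf7, encoding the transcription factor TCF1, was at 395, 3020.2 and 3807 in Treg cells and 51745 and 67509 in Tconv cells (log2 fold change -5.16 ± 0.70, limma adjusted p = 0.000356). Lef1, its relative, was at 1497, 2640 and 2399 and 14208 and 19048 (log2 fold change -2.96 ± 0.29, limma adjusted p = 4.6e-05). Satb1, which organizes chromatin in T cell development, was at 1141, 2906 and 4146 and 29444 and 43518 (log2 fold change -3.90 ± 0.44, limma adjusted p = 0.000102). Treg PBS replicate 1 was the lowest library in each of these genes. Dapl1, a marker of naive cells, was at 3.39, 29.2 and 11.8 and 1767 and 1906 (log2 fold change -7.27 ± 1.07, limma adjusted p = 0.000593), and Igfbp4, a binding protein of insulin-like growth factor, at 93.1, 1755 and 1286 and 30956 and 33934 (log2 fold change -5.76 ± 1.77, limma adjusted p = 0.0378), the latter not called without Treg PBS replicate 1, CD4 PBS replicate 2 and CD4 PBS replicate 3, each left out alone (limma adjusted p between 0.133 and 0.162, log2 fold change between -5.83 and -4.43). Mean levels of the list on the log2 scale were 8.10, 9.63 and 9.79 in Treg libraries, 11.95 and 12.13 in Tconv libraries and 11.63 and 11.88 in CD8 libraries. The number called was 8 without replicate 3 of every group.

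The largest decreases by fold, in genes with at least 200 normalized reads in each Tconv library, were of varied kinds. Besides Pdlim4, Tgfbr3, Dapl1 and Tdrp they were Lypd6b, a Ly6-type membrane protein, Hs3st3b1, which modifies heparan sulfate, Ggt5, a gamma-glutamyltransferase, Slc16a5, of the monocarboxylate transporter family, Arhgap29, a regulator of small GTPases, Adcy6, an adenylyl cyclase, Tspan9, a tetraspanin, and Ampd1, which deaminates AMP. Ggt5 was at 0, 15.2 and 8.24 in Treg cells and 1584 and 1524 in Tconv cells (log2 fold change -8.19 ± 1.13, limma adjusted p = 0.000381). Hs3st3b1 was at 0.847, 20.6 and 0 and 1208 and 1079.9 (log2 fold change -8.39 ± 0.95, limma adjusted p = 0.000106), and Slc16a5 at 0, 16.2 and 94.2 and 2329 and 2901 (log2 fold change -7.78 ± 1.60, limma adjusted p = 0.00495). Calls were lost for Arhgap29 without Treg PBS replicate 1, CD4 PBS replicate 2 and CD4 PBS replicate 3, each left out alone (limma adjusted p between 0.0892 and 0.136, log2 fold change between -7.19 and -5.69) and for Ampd1 without CD4 PBS replicate 2 and CD4 PBS replicate 3, each left out alone (limma adjusted p between 0.0818 and 0.0922, log2 fold change between -6.58 and -6.42). The calls that Tgfbr3 and Adcy6 lost with a Tconv library left out are given above. Across the 12 genes the highest Treg value was 148, for Tdrp, and the lowest Tconv value 226, for Adcy6.

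Of 76 genes of T cell receptor signalling few were called, and they include both transmitters and brakes of the signal. Of these, 6 were lower (Dgka, Pik3cd, Rasa3, Txk, Orai2 and Rasgrp2) and 1 higher, with 27 positive log2 fold changes in the list. With the replicate number as a block 3 were lower. Dgka, a diacylglycerol kinase that damps the signal, was at 9825, 10042 and 16612 in Treg cells and 47016 and 51838 in Tconv cells (log2 fold change -2.07 ± 0.25, limma adjusted p = 0.000154), near the threshold, and was not called without Treg PBS replicate 1, Treg PBS replicate 2 and CD4 PBS replicate 3, each left out alone (log2 fold change past the threshold in none of these, limma adjusted p between 0.001 and 0.00313). Pik3cd, the leukocyte PI3 kinase subunit, was at 2588, 3536 and 6069 and 21209 and 17848 (log2 fold change -2.35 ± 0.50, limma adjusted p = 0.00583), with the call lost without CD4 PBS replicate 2 (limma adjusted p = 0.0546, log2 fold change -2.23). Txk, a TEC-family kinase, was at 1152, 1261 and 1119.5 and 5321 and 5857 (log2 fold change -2.25 ± 0.31, limma adjusted p = 0.000356). The higher gene was Ubash3b, a phosphatase that restrains receptor signalling, at 5426, 4227 and 5514 and 1004 and 1132 (log2 fold change 2.23 ± 0.32, limma adjusted p = 0.000495). Phosphatases of MAP kinases and other feedback inhibitors, with the RGS proteins that act on G protein-coupled receptors in the same list, were higher in 6 of 26 (Dusp3, Dusp4, Dusp14, Rgs1, Rgs9 and Rgs16) and lower in 0. Dusp4, which dephosphorylates MAP kinases, was at 1075, 1272 and 2655 and 38.3 and 130.1 (log2 fold change 4.42 ± 0.62, limma adjusted p = 0.000438), and Rgs16, which shortens G protein signals, at 1255, 664 and 4168 and 0 and 112 (log2 fold change 7.16 ± 1.47, limma adjusted p = 0.00499). In both the highest library was Treg PBS replicate 3, which was also high in the immediate early genes, and the part of those in the values was not tested.

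Transcription factors of effector and tissue Treg cells were higher in 18 of 68 and lower in 1. Rora, a nuclear receptor of innate-like and type 17 cells, was at 4919.6, 7611 and 10774 in Treg cells and 1203 and 894 in Tconv cells (log2 fold change 2.83 ± 0.38, limma adjusted p = 0.000327). Bhlhe40, a regulator of cytokine production, was at 8079.6, 8146 and 16223 and 1479 and 1997 (log2 fold change 2.57 ± 0.35, limma adjusted p = 0.000381). Maf, a driver of IL-10 expression, was at 4740.0, 3576 and 4296 and 283 and 177 (log2 fold change 4.22 ± 0.38, limma adjusted p = 2.9e-05). Hif1a, the oxygen-sensitive factor, was at 32783, 27861 and 37700.2 and 7235 and 6625 (log2 fold change 2.23 ± 0.23, limma adjusted p = 6.9e-05). These genes were picked from called members without overlap between Treg and Tconv libraries. Within the Ikaros family Ikzf2 (Helios) was higher at 7511, 11018 and 9964 against 289.7 and 157 (log2 fold change 5.45 ± 0.43, limma adjusted p = 1.7e-05), whereas Ikzf1 (Ikaros) was the lower factor at 681, 1566 and 1944 against 8396 and 9336 (log2 fold change -2.79 ± 0.46, limma adjusted p = 0.00115).

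Genes of helper lineages were mixed. Of 19 type 2 genes 8 were higher and 0 lower (Il1rl1, Ccr3, Ccr4, Ccr8, Pparg, Areg, Nfil3 and Dusp4), most of them also expressed by tissue Treg cells, while Gata3 and Il4, named after their values were seen, were at 2527, 3079 and 4477 against 1880.4 and 2695 (limma adjusted p = 0.374) and at 5.08, 0 and 0 against 1.37 and 0.661. Of 46 type 1 and cytotoxic genes 9 were higher and 6 lower. Gzmb, encoding granzyme B, was at 21686, 19202 and 16534 and 547 and 131 (log2 fold change 6.15 ± 0.60, limma adjusted p = 4.6e-05), and Nkg7, a protein of cytotoxic granules, at 39068, 17413 and 11160 and 2273 and 1121 (log2 fold change 3.62 ± 0.49, limma adjusted p = 0.000363), with 29293 and 26686 in CD8 T cells. Gzma, Gzmk, Gzmm, Klrd1, Klrk1 and Crtam were the lower ones, with Klrd1, a lectin-like receptor chain, at 10.2, 59.6 and 8.24 and 500.2 and 322 (log2 fold change -4.45 ± 0.73, limma adjusted p = 0.00118). Gzma was not called with any single Treg library left out (limma adjusted p between 0.0737 and 0.109). Nor was it called without either Tconv library (log2 fold change between -3.40 and -1.995). Klrk1 likewise lost its call without either Tconv library (log2 fold change between -4.79 and -4.18), and Crtam without CD4 PBS replicate 3 (log2 fold change -4.62). The lower genes of this list numbered 3 without CD4 PBS replicate 2 and 2 without CD4 PBS replicate 3, and 1 without replicate 3 of every group. Of 24 follicular helper genes 7 were higher, led by Icos and Pdcd1, and 4 lower (Il21, Cd40lg, Tnfsf8 and Il6ra), all of which encode mediators of help or the IL-6 receptor. The higher genes of this list numbered 4 without CD4 PBS replicate 3, the lower ones 2 without CD4 PBS replicate 2, and together the counts were 2 and 1 without replicate 3 of every group.

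Of 25 glycolytic genes 7 were higher (Gapdh, Tpi1, Pgk1, Pgam1, Aldoc, Slc16a3 and Hk2) and 1 lower, with a median log2 fold change of 1.40. With the replicate number as a block 4 were higher, and Gapdh, Pgk1 and Pgam1 fell under the 4-fold threshold (log2 fold change 1.98, 1.98 and 1.91). Gapdh was at 74829, 77547 and 68921 in Treg cells and 16509.6 and 17120.4 in Tconv cells (log2 fold change 2.13 ± 0.32, limma adjusted p = 0.000688). Tpi1, triose phosphate isomerase, was at 25681, 29948 and 24156 and 2916 and 2381 (log2 fold change 3.33 ± 0.36, limma adjusted p = 9.1e-05). Slc16a3, the MCT4 carrier that exports lactate, was at 2172, 2145 and 2673 and 91.6 and 40.3 (log2 fold change 5.23 ± 0.53, limma adjusted p = 5.4e-05). The lower gene was Pdk1, a kinase that inhibits pyruvate dehydrogenase, at 2004, 2399.5 and 3089 and 14784 and 15597 (log2 fold change -2.63 ± 0.38, limma adjusted p = 0.000518). Gapdh is often used as a reference gene. Its log2 fold change was close to those of the glycolytic enzymes Pgk1, at 16170.1, 17554 and 15312 against 3837 and 3744 (log2 fold change 2.11 ± 0.24, limma adjusted p = 0.000121), and Pgam1, at 9668, 8891 and 8751 against 2155 and 2191 (log2 fold change 2.06 ± 0.26, limma adjusted p = 0.000239). Of 25 hypoxia response genes 5 were higher (Hif1a, Egln3, Bnip3, Rora and Plod2) and 1 lower, again Pdk1, the higher count being 2 without replicate 3 of every group, with the mitophagy gene Bnip3 at 2745, 4538 and 4838 against 395 and 461 (log2 fold change 3.20 ± 0.31, limma adjusted p = 4.1e-05). Egln3, a prolyl hydroxylase that marks HIF-1 alpha for degradation, was not called without Treg PBS replicate 3 and CD4 PBS replicate 2, each left out alone (limma adjusted p between 0.0274 and 0.0723, log2 fold change between 1.85 and 2.11).

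Among the lipid genes, 5 of 28 for uptake and storage were higher (Dgat1, Acot7, Plin2, Dgat2 and Pparg) and 0 lower. The enzymes that make triglyceride were both among them, Dgat1 at 13152, 8279.6 and 10930.4 against 1797 and 1409 (log2 fold change 2.73 ± 0.26, limma adjusted p = 4.2e-05) and Dgat2 at 688, 1026 and 756 against 0 and 7.93 (log2 fold change 8.09 ± 1.22, limma adjusted p = 0.000688). Plin2, which coats lipid droplets, was at 2631, 2548 and 2943 and 328 and 479.5 (log2 fold change 2.77 ± 0.38, limma adjusted p = 0.000394). Cholesterol and fatty acid synthesis had 2 higher of 40 (5%, under the 7.85% of all genes). They were Idi1 at 1251, 851 and 955 against 65.6 and 149 (log2 fold change 3.33 ± 0.44, limma adjusted p = 0.000308) and Cyp51 at 4814, 3065 and 2835 against 779 and 947 (log2 fold change 2.01 ± 0.31, limma adjusted p = 0.000814). Cyp51 was just over the threshold and not called without Treg PBS replicate 1 and CD4 PBS replicate 2, each left out alone (log2 fold change between 1.78 and 1.87). Asns, which makes asparagine, was the 1 called gene of 36 (2.78%) for protein folding and its stress response, at 700.3, 1261 and 456 and 6.83 and 11.9 (log2 fold change 6.20 ± 0.93, limma adjusted p = 0.000662). Solute carriers, with 19 of 210 higher and 5 lower, were called at close to the background shares, with higher genes numbering 10 without CD4 PBS replicate 3 and 8 without replicate 3 of every group, and lower genes 9 without Treg PBS replicate 3. Among them Slc39a4, a zinc importer, was at 1776, 1898 and 2867 and 284 and 161 (log2 fold change 3.31 ± 0.42, limma adjusted p = 0.000237), and Slc12a7, a potassium chloride cotransporter, was lower at 541, 853 and 1321 and 7293 and 6441 (log2 fold change -3.01 ± 0.50, limma adjusted p = 0.00118).

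Subunits of housekeeping machines were not called at this threshold. Of 85 subunits of the respiratory chain and ATP synthase 0 were called, although 77 had a positive log2 fold change, with a median of 0.52. Their mean level on the log2 scale was 11.38, 11.18 and 10.47 in Treg libraries and 10.70 and 10.33 in Tconv libraries, so that Treg PBS replicate 3 lay within the Tconv range. Atp5b, the catalytic subunit of the synthase, was at 36399.6, 41474 and 30307 and 33127 and 34236 (log2 fold change 0.09 ± 0.27, limma adjusted p = 0.848). Likewise 0 of 47 proteasome genes (median 0.51), 0 of 77 mitochondrial ribosomal proteins (median 0.23) and 0 of 82 cytosolic ribosomal proteins (median -0.32, 12 positive) were called. At an adjusted p of 0.05 without the fold threshold, 1706 of all 12667 genes were higher and 875 lower. By this rule 4 respiratory genes were higher and 1 lower, and 2 proteasome genes higher and 0 lower. Of the mitochondrial ribosome genes 5 were higher and 2 lower, and of the cytosolic ones 1 higher and 5 lower. Rpl4 stood at 23019, 24512 and 18422 and 29289.8 and 31350.4 (log2 fold change -0.47 ± 0.26, limma adjusted p = 0.222).

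**Figure D4:**
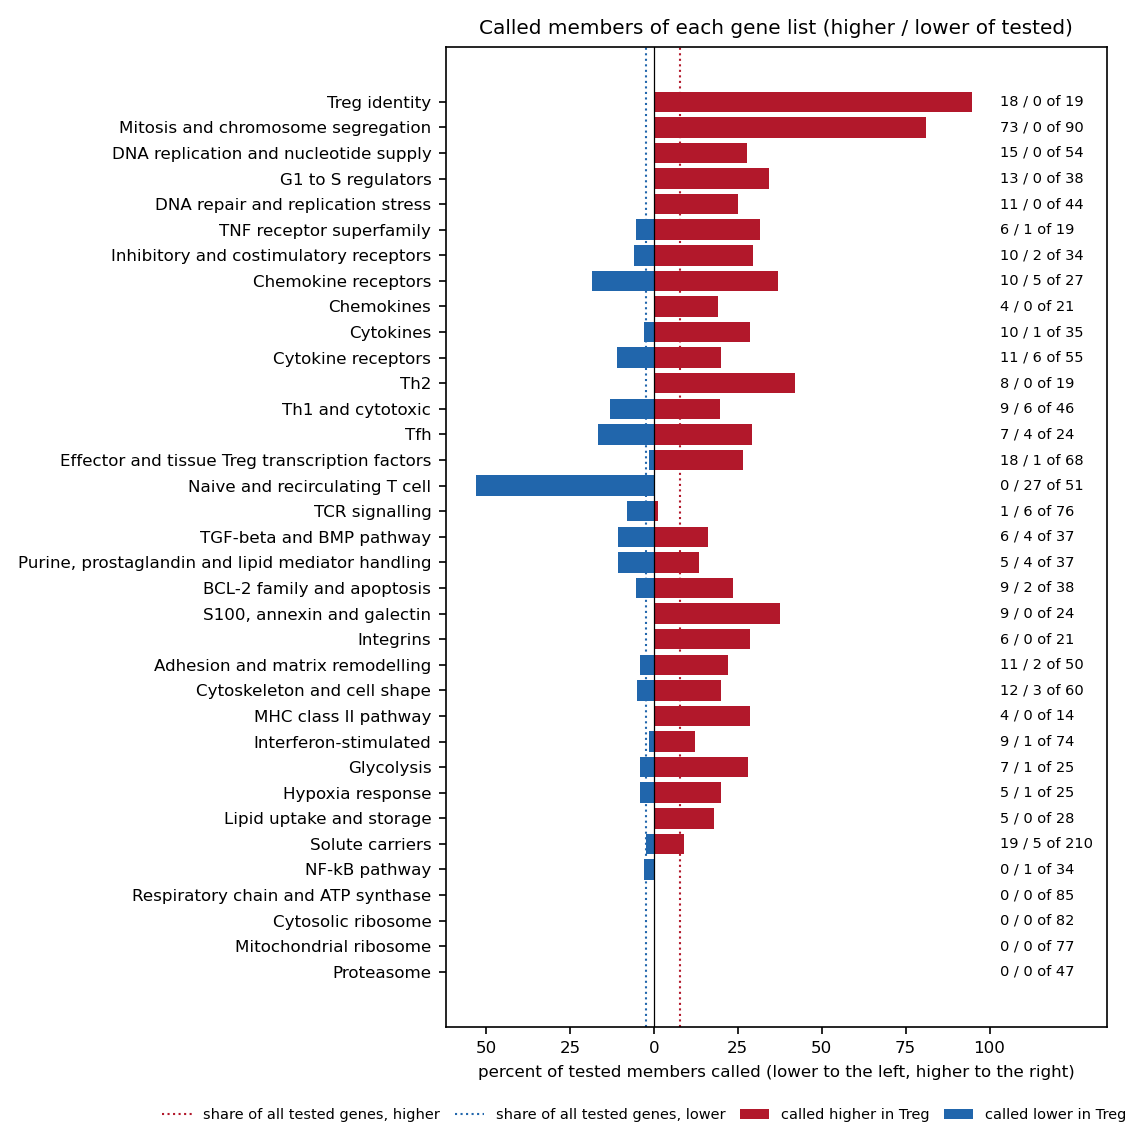
Percent of the tested members of each gene list called higher (bars to the right) or lower (bars to the left) in Treg PBS than in CD4 PBS, with the numbers higher / lower of tested at the right and dotted lines at the share of all tested genes (7.85% higher, 2.35% lower). The Treg identity list, with 18 of 19 higher, mitosis, with 73 of 90, and the naive list, with 27 of 51 lower, stand far out, and the ribosome, respiratory chain and proteasome lists have no bar.

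Genes of cell death were higher in 9 of 38 and lower in 2, on both sides of the balance. Birc5, encoding survivin, which serves both survival and mitosis, was at 1869.6, 3215 and 994 in Treg cells and 210.5 and 35 in Tconv cells (log2 fold change 4.38 ± 0.70, limma adjusted p = 0.00103). Bcl2a1b, a survival protein whose reads may be shared with near-identical copies, was at 2525, 1909 and 1092 and 384 and 231 (log2 fold change 2.54 ± 0.41, limma adjusted p = 0.00108). The survival gene Bcl2 was lower at 230.3, 905 and 1138 against 3569 and 3394 (log2 fold change -2.49 ± 0.52, limma adjusted p = 0.00572), as was Bbc3, which encodes the death activator PUMA, at 132, 108 and 225 against 1383 and 453 (log2 fold change -2.41 ± 0.65, limma adjusted p = 0.0201). The lower count was 0 without Treg PBS replicate 1, 1 without Treg PBS replicate 2 and 1 without CD4 PBS replicate 2, with Bcl2 not called without Treg PBS replicate 1 (limma adjusted p = 0.00238, log2 fold change -1.78) and Bbc3 not called without Treg PBS replicate 1, Treg PBS replicate 2 and CD4 PBS replicate 2, each left out alone (limma adjusted p between 0.0595 and 0.226, log2 fold change between -2.33 and -1.61).

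Interferon-stimulated genes were higher in 9 of 74 and lower in 1, Oas2, and the higher ones numbered 5 without CD4 PBS replicate 3 and 4 without replicate 3 of every group. These shares, 12.2% higher and 1.35% lower, were not far from the 7.85% and 2.35% of all genes. Ly6a, the Sca-1 antigen, was at 86961, 48092 and 37655 and 10939 and 6132 (log2 fold change 2.72 ± 0.44, limma adjusted p = 0.00108), and Isg20, a nuclease, at 8547, 4190.2 and 3268 and 634 and 637 (log2 fold change 2.94 ± 0.42, limma adjusted p = 0.000469). Genes of antigen presentation by MHC class II were higher in 4 of 14, Cd74, H2-Ab1, H2-Eb1 and Ciita. H2-Ab1 was not called with any single library of either group left out (log2 fold change between 1.87 and 3.47). H2-Eb1 lost its call with Treg PBS replicate 1, Treg PBS replicate 2 or CD4 PBS replicate 3 left out (log2 fold change between 2.05 and 3.11). Cd74, the invariant chain, was at 22176, 23197 and 19226 in Treg cells and 1480 and 901 in Tconv cells (log2 fold change 4.22 ± 0.56, limma adjusted p = 0.000318), and Ciita, the master activator of the pathway, at 264, 211 and 141 and 0 and 0, at least 50.1-fold higher (limma adjusted p = 0.0056). Called members numbered 2 without Treg PBS replicate 1, 2 without Treg PBS replicate 2 and 2 without CD4 PBS replicate 3, and 0 without replicate 3 of every group. B cell markers summed to 23185, 20959 and 18556 in Treg libraries and 16490.4 and 16339.7 in Tconv libraries, with Ms4a1, encoding CD20, at 0, 70.4 and 20 and 69.7 and 55.5. The B cell markers called higher were Igkc, at 583, 595 and 338 and 76.5 and 23.8 (log2 fold change 3.48 ± 0.92, limma adjusted p = 0.0188), not called without Treg PBS replicate 1, Treg PBS replicate 2 and CD4 PBS replicate 3, each left out alone (limma adjusted p between 0.0584 and 0.178, log2 fold change between 2.66 and 3.36), and Cd79b, at 401, 686 and 403 and 77.9 and 37 (log2 fold change 3.14 ± 0.64, limma adjusted p = 0.00497), not called without CD4 PBS replicate 3 (limma adjusted p = 0.0675, log2 fold change 2.61). Dendritic cell markers, Cd74 included, summed to 23678, 26114 and 20804 and 2053 and 1139, with Itgax at 0, 19.5 and 0 and 0 and 0 and Flt3 at 0.847, 41.2 and 21.2 and 21.9 and 0. Besides Cd74, the dendritic cell marker called higher was Xcr1, at 316, 278 and 337 and 73.8 and 21.8 (log2 fold change 2.91 ± 0.47, limma adjusted p = 0.00109). Macrophage markers summed to 5241, 2839 and 1623 and 2137 and 2326. The part of such cells in the class II values was not tested.

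**Figure D5:**
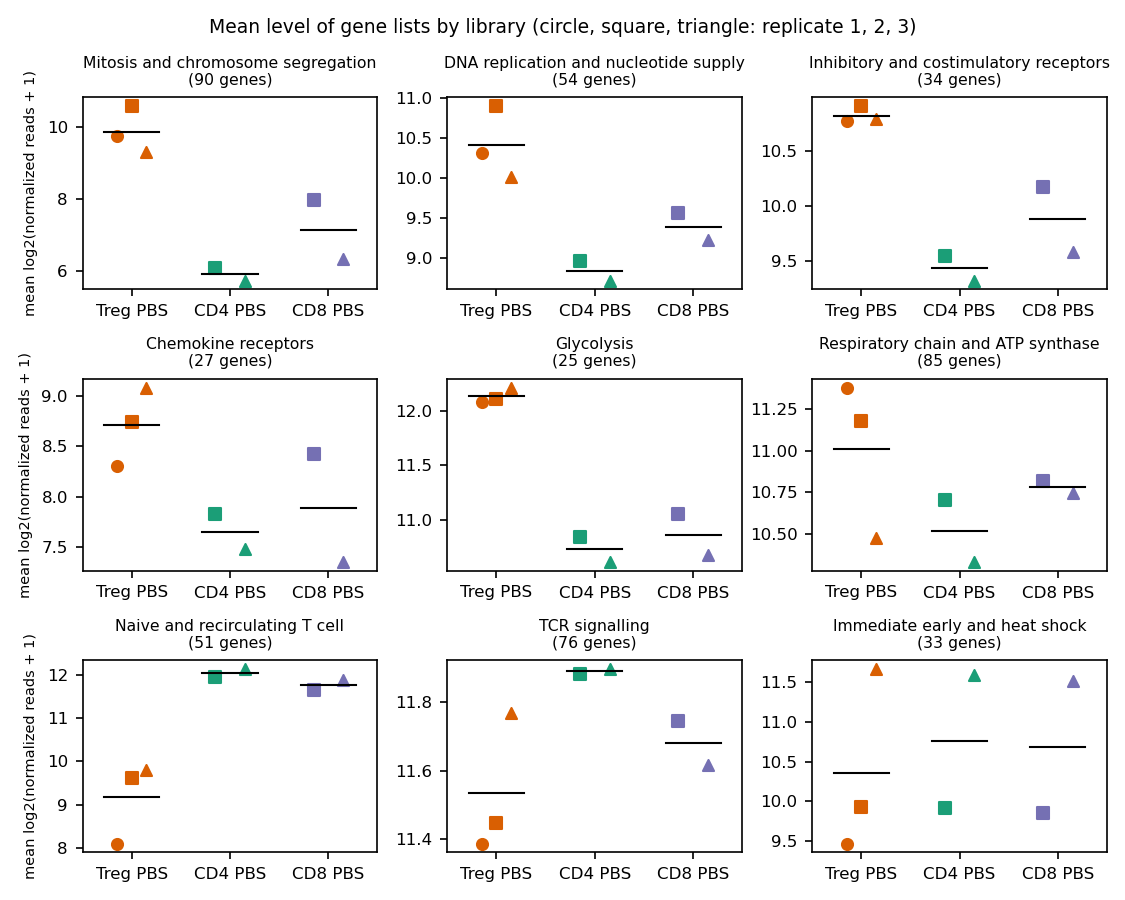
Mean log2(normalized reads + 1) over the tested members of 9 gene lists (y axes, each with its own range) in the Treg PBS (n = 3), CD4 PBS (n = 2) and CD8 PBS (n = 2) libraries, with symbols for the replicate number and a bar at the group mean. Of these lists, mitosis and the naive list separate Treg from Tconv libraries most widely, at 9.74, 10.58 and 9.31 against 6.10 and 5.74 and 8.10, 9.63 and 9.79 against 11.95 and 12.13, whereas the immediate early list is highest in replicate 3 of every group.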

How the data were processed

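RNA was extracted from FACS-sorted tumor T cells, and libraries were made with the SmartSeq2 protocol per the labels (a SMARTer low-input kit per the study's methods) and sequenced on a HiSeq instrument. According to those methods and the submitters' processing notes, the authors used FastQC and Cutadapt, aligned reads with hisat2 to NCBIM37 (mm9), kept uniquely mapped reads and normalized for library size and intergenic reads, and the notes list DESeq2. The read counter and strand setting are not given in the sources used here, so overlapping, antisense and near-identical genes are uncertain. The deposited values are a normalized signal per gene, called FPM by the authors. Within each library 100% of them were whole multiples of 1 step (tolerance 0.01 read), so whole reads were recovered, between 15947556 and 34140486 per library, and 1 read was worth between 0.661 and 1.37 normalized reads. The detection floor was 3 reads, and intervals or floors of this kind cover counting error only. The table held 53 genes at 0 in all libraries and 21 symbols turned into dates, which were not named.

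Groups came from the labels, with replicate numbers from the titles. The study describes biological replicates from separate days, without saying which libraries shared a day. Genes reaching 10 normalized reads in 2 or more of the 13 libraries were fitted with limma 3.58.1 in R 4.3.3 on log2(value + 1), with 1 mean per group over all 13 libraries and empirical Bayes moderation with a trend. Calls needed a Benjamini-Hochberg adjusted p under 0.05 and an absolute log2 fold change over 2, the 4-fold threshold of the study. The fit was tested on simulated data. Alternatives included edgeR 4.0.16 and DESeq2 1.42.0 on the recovered reads, other pseudocounts, filters and scalings, a replicate block and leaving out single libraries, and a fit without replicate 3 of every group was added after seeing the data. Named genes were Foxp3, Cd4 and Cd8a, and the 8 largest differences of means in each direction among called genes. The 12 largest fold changes in each direction were named among called genes without overlap. Each library of the higher group had at least 200 normalized reads in these. From each gene list came up to 4 called members per direction without overlap and with the highest level. Where a list had no called member, the 2 with the highest level were named. Exceptions are marked as chosen after their values were seen, and a few named genes are not reported here. The comparison and the gene lists were chosen with earlier results of these data known. Promoters were taken from a RefSeq table of GRCm38.p6, matched by symbol or a unique synonym for 9729 of the 12667 genes tested, which is fewer than 80%, so shares are given against all 27025 promoters of the table and for gene lists with at least 80% matched.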

Additional observations from a re-analysis of the deposited data

How the results depend on the processing

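The total of 1292 calls was within 1.5 times under 15 of the 19 alternatives. It was 2581 (1706 higher, 875 lower) at adjusted p under 0.05 with no fold threshold, 850 (697 higher, 153 lower) at adjusted p under 0.01, 796 (553 higher, 243 lower) without replicate 3 of every group, and ranged from 840 to 1343 with 1 library left out, where lower calls ranged from 132 to 399. Quantile normalization gave 512 lower calls. The edgeR test on recovered reads called 774 higher and 222 lower, and DESeq2 1067 and 305. A fit of the 5 compared libraries alone called 976 higher and 312 lower, of which 874 and 218 were among the main calls. In that fit 28 named genes lost their call, Tnfsf8 and Slc16a5 among them. The cause of these shifts was not tested. Under the 16 fits other than that without replicate 3 of every group, 507 of the 994 higher and 95 of the 298 lower genes were called the same way. Of 207 named genes that were called, 0 reversed under any of 17 fits, and the call of 97 was lost without replicate 3 of every group. Of 72 list counts, 19 stayed within 1.5 times under every alternative with the fold threshold. Replicate numbers 2 and 3 are shared by the groups, but the correlation of deviations from the group means was 0.099 for number 2 and 0.102 for number 3, and 2 pairs cannot show pairing, so the replicate block is given here, with 1048 higher and 259 lower calls, and beside the T cell receptor, glycolysis and TGF-beta lists, whose counts it moved by over 1.5 times. With 3 and 2 libraries, and 303 higher genes at or under the floor of 3 reads in Tconv cells, small differences and exact folds of low genes were not resolved.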

Other observations

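Of the called genes, 674 higher and 220 lower ones were in none of the gene lists. Those below were chosen after their values were seen, from those with the most normalized reads among the 300 higher and 67 lower ones that were called under all 16 alternative fits other than the one without replicate 3 of every group. Glrx, glutaredoxin of the thiol redox system, was at 37605, 23209 and 19363 normalized reads in Treg PBS 1, 2 and 3 and 1783 and 1150.0 in CD4 PBS 2 and 3 (log2 fold change 4.16 ± 0.37, limma adjusted p = 2.5e-05). Serpina3g, an intracellular inhibitor of cathepsin proteases, stood at 38708, 21265 and 16082 against 1677 and 369.9 (log2 fold change 4.91 ± 0.65, limma adjusted p = 0.000293). Crem, a transcription factor of the cyclic AMP response, was at 10095, 6101 and 7868 against 1032 and 1034 (log2 fold change 2.93 ± 0.43, limma adjusted p = 0.000606). Several others encode proteins of membrane traffic and cell shape, among them the sorting nexin Snx9 at 9592, 5281 and 7801 against 353 and 285 (log2 fold change 4.53 ± 0.27, limma adjusted p = 4.9e-06), the syntaxin Stx11, which serves granule release in cytotoxic cells, at 5074, 5903 and 6788 against 525 and 278 (log2 fold change 3.94 ± 0.32, limma adjusted p = 1.7e-05), and Cyfip1, of the complex that starts branched actin, at 7944, 6570.2 and 7567 against 732 and 402 (log2 fold change 3.76 ± 0.34, limma adjusted p = 2.7e-05). Map2k3, a kinase upstream of p38, was at 11114, 10890.4 and 11743 against 2407 and 2246 (log2 fold change 2.27 ± 0.18, limma adjusted p = 1.7e-05), the 3 Treg libraries lying close together.

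On the lower side, Fam65b, an inhibitor of the GTPase RhoA, was at 1534, 3346 and 3607 in Treg cells and 17500.3 and 18928 in Tconv cells (log2 fold change -2.78 ± 0.42, limma adjusted p = 0.000714). Ugcg, the first enzyme of glucosylceramide synthesis, was at 874, 1287 and 2957 and 8795 and 9555 (log2 fold change -2.62 ± 0.54, limma adjusted p = 0.00494). Galnt10, an enzyme of O-linked glycosylation, was at 1102, 875 and 1379 and 9366 and 9443 (log2 fold change -3.10 ± 0.26, limma adjusted p = 1.9e-05). Pik3r5, a regulatory subunit of the PI3 kinase that serves G protein-coupled receptors, was at 781, 827 and 1436 and 5776 and 5019 (log2 fold change -2.46 ± 0.41, limma adjusted p = 0.00134). Vipr1, a receptor for vasoactive intestinal peptide, was at 141, 57.4 and 48.3 and 3337 and 3483 (log2 fold change -5.52 ± 0.54, limma adjusted p = 4.7e-05). Only genes in which the groups did not overlap were taken for these paragraphs.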
